A study of Rattus norvegicus with 90 samples.

Results

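Microglia of newborn rats given the cytokine interleukin 1β (IL-1β) were compared with microglia of rats given saline buffer, at postnatal day (P) 12, in the intranasal experiment of a study of human umbilical cord mesenchymal stromal cells (HuMSC). The injured group had received recombinant mouse IL-1β into the peritoneum at 20 µg per kg from P1 to P5 and then PBS by nose at P10 in place of cells. The control group had received PBS on both occasions. Sample titles chose the libraries, 3 injured and 3 control, which are 6 of the 90 of the series. All 6 came from perfused brains of male Wistar Han pups, without olfactory bulbs and cerebellum. The tissue was dissociated with an adult brain kit, and cells were taken with beads against CD11b/c, a surface antigen that microglia share with other myeloid cells. Polyadenylated RNA was sequenced as stranded single reads. The 9 other libraries of the same sequencing run held pups given IL-1β and then 20, 50 or 125 M HuMSC per kg, and here they mainly helped to estimate the spread. The labels do not say whether a replicate is 1 animal, so p-values measure the spread between libraries.

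IL-1β acts through a receptor complex that activates NF-kB and MAP kinases, which switch on cytokine genes and immediate early genes within hours. Microglia are the resident macrophages of the brain. They depend on signalling through the receptor Csf1r, and in the early postnatal white matter some take on a state marked by Igf1, Spp1, Gpnmb and lipid-handling genes while oligodendrocytes begin to make myelin. Early systemic IL-1β is used as a model of the inflammation that accompanies white matter injury in infants born preterm.

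Total counts were 13 M, 14.0 M and 15.9 M in the injured libraries and 11.4, 12.7 and 12.2 M in the control libraries. Across genes, log2 CPM (counts scaled to library size) of libraries of the same group correlated with r from 0.983 to 0.985, and those of an injured and a control library with r from 0.973 to 0.983. Mitochondrially encoded transcripts took 3.20, 3.10 and 4.45% of counts in injured and 4.56, 5.11 and 5.84% in control libraries, without overlap. All 13 of these transcripts had a log2 fold change below 0 (median -0.54), and 0 of 13 passed the test. Their part in the results below was not tested.

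Of 13868 genes tested, edgeR called 383 at an adjusted p under 0.05, which is 2.76%. Of these, 222 were higher in injured libraries (1.6% of genes tested) and 161 lower (1.16%), and the median log2 fold change of all genes was 0.0077. A log2 change of at least 1 in size was reached by 43 of the higher and 66 of the lower genes. In 382 of the 383 every injured library lay on one side of every control library, which largely follows from the call. Of all 13868 genes tested, the groups were separate for 1845 that were higher and 1479 that were lower in injured libraries. Leaving out any 1 of the 6 libraries kept the sign of all 383, as separate groups all but ensure. The call was kept for 82, 179 and 242 of them when injured replicate 1, 2 or 3 was left out, and for 95, 65 and 275 when control replicate 1, 2 or 3 was. A gene is said to hold below where its call was kept in each of these 6 fits, as it was for 46 genes. With the 6 libraries alone 89 genes were called, and 43 of the 87 called genes named here then missed the threshold, among them 1 of the 25 named genes that held (Ankrd55).

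**Figure D1:**
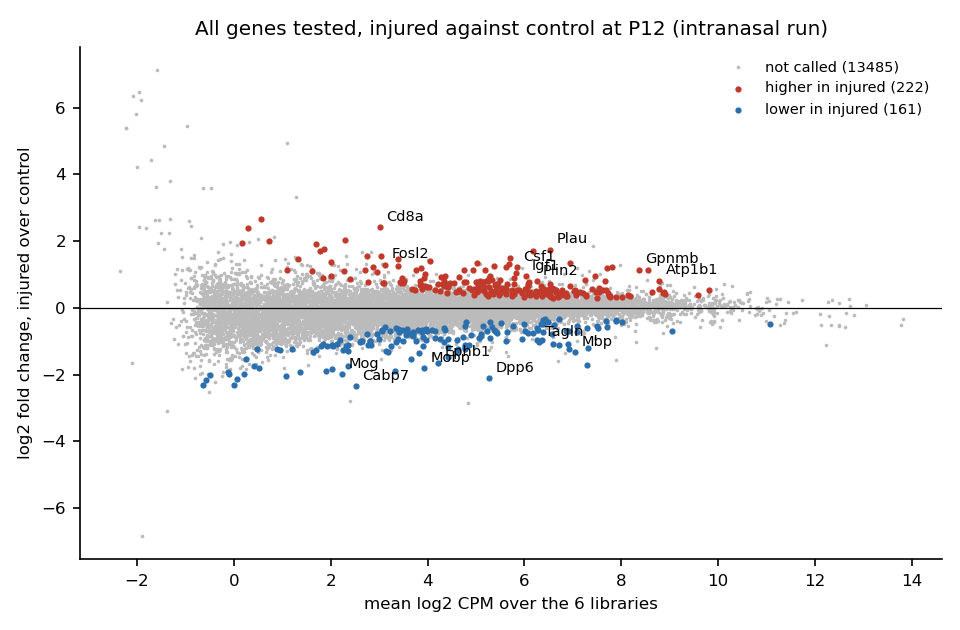
Log2 fold change of injured over control libraries (vertical) against mean log2 CPM over the 6 libraries (horizontal), 1 point for each of the 13868 genes tested. The 222 genes called higher are red and the 161 called lower are blue. Csf1, Plau and Atp1b1 stand above the grey points at medium to high levels, and Mobp, Mbp, Dpp6 and Ephb1 below them.

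Signature genes of resting microglia were called at about the share of all genes tested. P2ry12, a purinergic receptor that guides microglial processes, had 1589, 2248 and 1435 CPM in injured libraries and 2027, 1928 and 2199 CPM in control libraries. The microglial surface protein gene Tmem119 had 754, 605 and 274 CPM in injured and 541, 836 and 795 CPM in control libraries, and the fractalkine receptor gene Cx3cr1 had 1551, 2193 and 1367 against 1614, 1278 and 1532 CPM. For all 3 genes the groups overlapped. Of the 28 homeostatic genes tested 1 rose and 0 fell (3.57% called, against 2.76% of all genes tested), and their median log2 fold change was -0.14. Members of this and all lists below were chosen with earlier results of these data known. The shares called therefore describe the lists and do not test them against all genes.

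Signals that act on microglia and on growing brain cells changed in both directions. Csf1, a ligand of Csf1r, had 85.7, 80.5 and 98.2 CPM in injured libraries, against 38.0, 39.0 and 36.5 CPM in control libraries. Its log2 fold change of 1.22 ± 0.11 (SE, n = 3 against 3, as for all fold changes below) had the smallest p of all genes tested (edgeR adjusted p = 0.000199), and it held. Il34, the other ligand of that receptor, which neurons make, had 6.71, 7.18 and 8.61 CPM in injured and 13.9, 17.9 and 11.5 CPM in control libraries. It fell by 0.94 ± 0.18 (edgeR adjusted p = 0.0138). Igf1, a growth factor for oligodendrocytes and neurons, rose by 0.96 ± 0.17 (edgeR adjusted p = 0.00994), with 70.3, 102 and 101 CPM in injured and 43.8, 42.7 and 54.7 CPM in control libraries. Each gene had separate groups.

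Of 21 growth factor genes tested, 5 rose and 3 fell (38.1% called, against 2.76% of all genes tested), and the list's median was -0.03. The other risers were Vegfb (0.74 ± 0.16), the IL-6 family cytokine gene Osm (0.71 ± 0.18) and the stress cytokine gene Gdf15 (1.13 ± 0.27). The other genes that fell were Tgfb2 (by 0.99 ± 0.23) and Fgf1 (by 1.28 ± 0.32). Csf1 was the only one of the 8 that held. Igf1 missed the threshold without control replicate 1 (edgeR adjusted p = 0.0501) or 2 (0.0634), and Il34 without injured replicate 1 (0.0743) or control replicate 2 (0.0794). Osm and Gdf15 missed it whichever of the 6 libraries was left out (up to 0.142 and 0.133). Vegfb did so for all but injured replicate 2 (up to 0.0997), Fgf1 for all but control replicate 3 (up to 0.172) and Tgfb2 for all but injured replicate 2 and control replicate 3 (up to 0.135).

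**Figure D2:**
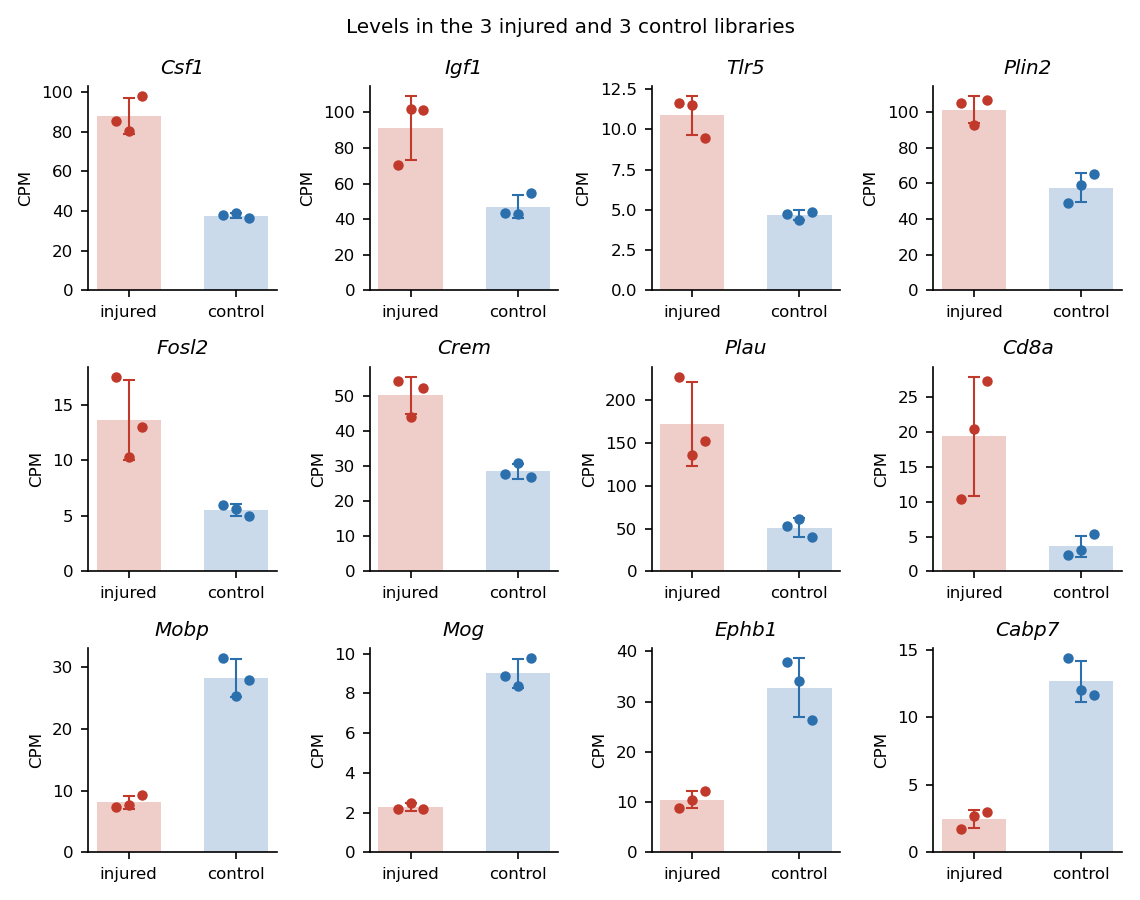
CPM of 12 genes in the 3 injured (red, left) and the 3 control (blue, right) libraries, with points for libraries, bars for means and whiskers for the SD, each axis starting at 0. In all 12 panels the 2 groups are separate, as for Csf1 at 80.5 to 98.2 CPM in injured and 36.5 to 39.0 CPM in control libraries.

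Immediate early genes, the transcription factors and regulators that cells switch on first after a stimulus, were the list with the most called genes among those that rose. Of 39 tested, 9 rose and 0 fell (23.1% called, against 1.6% of all genes tested called higher), 36 had a log2 fold change above 0, and the median was 0.66. The AP-1 subunit gene Fosl2 had 17.5, 10.3 and 13 CPM in injured and 5.97, 5.63 and 4.98 CPM in control libraries, a change of 1.30 ± 0.19 (edgeR adjusted p = 0.00281) that held. The orphan nuclear receptor genes Nr4a1, Nr4a2 and Nr4a3 all rose, by 1.14 ± 0.29, 1.50 ± 0.38 and 1.75 ± 0.35. For Nr4a3 the levels were 6.41, 4.69 and 8.55 CPM in injured and 2.64, 1.45 and 1.74 CPM in control libraries. The stress factor gene Atf3 rose by 1.21 ± 0.25, with 447, 291 and 299 CPM in injured and 155, 163 and 130 CPM in control libraries. The best-known members did not pass. Fos had a log2 fold change of 0.43 ± 0.21, Jun 0.45 ± 0.23 and Egr1 0.56 ± 0.18 (edgeR adjusted p = 0.264, 0.291 and 0.0988).

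The remaining risers of this list were Fosb (1.20 ± 0.29), Arc (1.47 ± 0.27), which encodes a synaptic protein, and the genes of the small Maf factor Maff (1.25 ± 0.30) and of Crem (0.81 ± 0.15). Crem, a modulator that binds cyclic AMP response elements (CRE), had 54.2, 44.1 and 52.2 CPM in injured and 27.7, 30.9 and 27.0 CPM in control libraries. Injured replicate 1 was the highest injured library for Fosb, Fosl2, Maff, Nr4a1, Nr4a2, Atf3 and Crem. Without it Fosl2 alone of the 9 stayed under the threshold, and the adjusted p of the others was between 0.0544 (Arc, Nr4a3, Crem) and 0.192 (Nr4a1). Leaving out control replicate 1 raised Crem to 0.0508, Atf3 to 0.0683, Maff and Nr4a1 to 0.105, Fosb to 0.112 and Nr4a2 to 0.122. Leaving out control replicate 2 raised all but Fosl2 and Crem to values between 0.0794 (Atf3) and 0.139 (Maff). Fosb, Nr4a1, Nr4a2, Atf3 and Maff also missed it without control replicate 3 (0.0537 to 0.116), Nr4a2 and Maff without injured replicate 2 (0.0518 and 0.0691), and Fosb, Nr4a1 and Nr4a2 without injured replicate 3 (0.0618 to 0.0659). Immediate early genes also respond to tissue dissociation, and whether handling differed between the groups was not tested.

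Promoters of the called immediate early genes are shown because CRE-binding factors such as Crem are themselves in the list. RefSeq promoters (build GRCr8, from 250 bases before to 50 after the start) were found for 6 of the 9. The full CRE, TGACGTCA, read on both strands, occurred in those of Maff and Crem, against 1.83% of all 33465 promoters. The 75 bases before the start of each, 5′ to 3′ on the plus strand, with the CRE in capitals, lie at chr7:112792712-112792786 and chr17:58985415-58985489.
Maff: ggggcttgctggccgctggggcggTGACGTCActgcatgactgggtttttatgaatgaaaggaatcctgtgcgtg
Crem: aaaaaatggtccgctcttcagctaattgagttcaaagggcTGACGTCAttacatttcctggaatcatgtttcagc
The element starts 51 bases before the start of Maff and 35 before that of Crem, which holds another 39 bases after its start. An AP-1 site (TGANTCA, in 7.33% of all promoters) and a CArG box (in 1.64%) were in 0 of the 6, and an NF-kB site (in 4.18%) in 1, that of Nr4a1. In the promoters of 9 of the 12 called myelin genes described below the count was 1 for AP-1 (Klk6) and 0 for the other motifs, and in those of 5 of the 8 called growth factor genes it was 0 for all 4.

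Il1b itself did not pass the test, while 4 other inflammatory genes did. Il1b had 304, 149 and 180 CPM in injured and 103, 91.7 and 84.2 CPM in control libraries, without overlap, for a log2 fold change of 1.18 ± 0.32 (edgeR adjusted p = 0.0601). The cytokine gene Tnf had a count of 0 in all 6 libraries. Of 34 cytokine and NF-kB target genes tested, 4 rose and 0 fell (11.8% called, against 1.6% of all genes tested called higher), with a median of 0.37. They were the gene of the IL-1 receptor antagonist, Il1rn (13, 10.1 and 10.5 CPM in injured and 4.18, 5.96 and 5.81 CPM in control libraries, 1.07 ± 0.24), the neutrophil chemokine gene Cxcl2 (1.35 ± 0.32), Tnfaip2 (0.90 ± 0.20) and the stress response gene Gadd45b (1.13 ± 0.21). Cxcl2 had 302 CPM in injured replicate 1 and 141 and 157 CPM in the other injured libraries, against 75.0, 79.9 and 81.0 CPM in control libraries. None of the 4 held. Without injured replicate 1 the adjusted p was 0.114 for Il1rn, 0.175 for Cxcl2, 0.110 for Tnfaip2 and 0.0569 for Gadd45b, and without control replicate 1 it was 0.110, 0.121, 0.116 and 0.0610. Without control replicate 2 the first 3 had 0.0837, 0.138 and 0.0940, Cxcl2 had 0.0718 without control replicate 3, and Tnfaip2 had 0.0677 without injured replicate 3.

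Of the genes of IL-1 receptors and their signalling, 0 of 19 passed, with a median of 0.24, and 16 of the 19 were above 0. The receptor gene Il1r1 had 30.1, 19.4 and 27.7 CPM in injured and 31.2, 22.9 and 26.8 CPM in control libraries. Likewise 0 of 30 interferon response genes (median 0.09), 0 of 19 antigen presentation genes (0.18), 0 of 27 complement and phagocytosis genes (0.04), 0 of 15 MAP kinase feedback genes (0.11) and 0 of 14 glucocorticoid response genes (0.26) passed at this depth. With 2.76% of all genes tested called, a count of 0 says little in lists of this size. Without injured replicate 2 the complement median was -0.10.

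Several genes outside these lists rose. Plau, the urokinase plasminogen activator, had 227, 136 and 152 CPM in injured and 53.2, 60.9 and 39.7 CPM in control libraries, a log2 fold change of 1.74 ± 0.31 (edgeR adjusted p = 0.0103, and 0.0504 without injured replicate 1). Tlr5, the flagellin receptor gene, had 11.7, 11.5 and 9.49 CPM in injured and 4.78, 4.35 and 4.90 CPM in control libraries. It rose by 1.22 ± 0.18 (edgeR adjusted p = 0.00272) and held. The related receptor gene Tlr1 rose by 1.55 ± 0.28 but missed the threshold without injured replicate 1 (edgeR adjusted p = 0.0548), control replicate 1 (0.0539) or control replicate 2 (0.0723). Gpr183, a receptor for oxysterols, rose by 1.24 ± 0.18 and held, at 87.1, 81.8 and 61.0 CPM in injured and 29.3, 26.4 and 41.8 CPM in control libraries.

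Others that held were the tetraspanin gene Tspan10 (1.93 ± 0.32), the kinase gene Nuak2 (1.41 ± 0.20) and the neuregulin receptor gene Erbb3 (0.94 ± 0.12). So did Atp1b1, a subunit of the sodium pump (0.82 ± 0.10), the stannin gene Snn (0.66 ± 0.09) and the unconventional myosin gene Myo1e (0.66 ± 0.08). Atp1b1 had 548, 667 and 544 CPM in injured and 347, 302 and 349 CPM in control libraries. Snn had 154, 155 and 153 CPM in injured and 104, 89.3 and 98.6 CPM in control libraries. The proteoglycan gene Sdc4 rose by 1.72 ± 0.39, with 248 CPM in injured replicate 1, 86.1 and 86.9 CPM in the other injured libraries and 38.1, 50.3 and 39.4 CPM in control libraries. Its adjusted p in edgeR was 0.135 without injured replicate 1, and 0.110, 0.0940 and 0.0669 when control replicate 1, 2 or 3 was left out. The transcription factor gene Runx3 rose by 1.71 ± 0.35, with 0.0763 without injured replicate 1 and 0.0714 and 0.0940 without control replicates 1 and 2. The exchange factor gene Rasgef1b rose by 1.56 ± 0.37 and the receptor kinase gene Grk3 by 1.47 ± 0.31. Rasgef1b missed the threshold when injured replicate 1 or any control library was left out (0.0721 to 0.177), and Grk3 when replicate 1 or 2 of either group was (0.0570 to 0.117).

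Genes of the microglial state seen in disease and in developing axon tracts changed mostly upwards. Of 31 tested, 6 rose and 1 fell (22.6% called, against 2.76% of all genes tested), 26 were above 0, and the median was 0.36. Csf1 and Igf1 belong to this list. Plin2, which coats lipid droplets, had 105, 92.5 and 107 CPM in injured and 49.1, 58.9 and 65.0 CPM in control libraries, a change of 0.81 ± 0.11 (edgeR adjusted p = 0.00158) that held. Gpnmb, a lysosomal glycoprotein, rose by 1.15 ± 0.23, at 321, 664 and 527 CPM in injured and 225, 177 and 279 CPM in control libraries. The lysosomal genes Cd68 and Cd63 rose by 0.82 ± 0.15 and 0.48 ± 0.12, while the cathepsin gene Ctsl fell by 0.47 ± 0.12. Spp1 (osteopontin) had 222, 368 and 715 CPM in injured and 14.9, 120 and 229 CPM in control libraries, and the groups overlapped (1.84 ± 0.72, edgeR adjusted p = 0.169). The galectin gene Lgals3 had 42.9, 41.3 and 46.0 CPM in injured and 23.5, 24.1 and 24.9 CPM in control libraries (0.84 ± 0.23, edgeR adjusted p = 0.0615).

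Of these calls Csf1 and Plin2 held. Without control replicate 1 the adjusted p in edgeR was 0.0683 for Gpnmb and 0.0534 for Cd68, and without control replicate 2 it was 0.0987 and 0.0509. Gpnmb also missed the threshold without injured replicate 2 (0.0625), Cd63 whichever library was left out (0.0700 to 0.134), and Ctsl in all but the fit without injured replicate 2 (0.0552 to 0.163).

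In lipid metabolism, 2 of 28 genes of LXR targets and lipid handling rose and 0 fell, with a median of 0.16. This is 7.14% called, against 1.6% of all genes tested called higher. The 2 genes were Plin2 and Soat1, which esterifies cholesterol for storage (0.68 ± 0.13, edgeR adjusted p = 0.0143, then 0.0570 and 0.0906 without control replicates 1 and 2). The cholesterol efflux pump gene Abca1 had 294, 317 and 304 CPM in injured and 234, 199 and 232 CPM in control libraries (0.46 ± 0.12, edgeR adjusted p = 0.0570). Of 24 cholesterol synthesis genes 0 rose and 1 fell (4.17% called, against 1.16% of all genes tested called lower). This was the sterol oxidase gene Msmo1, which fell by 0.47 ± 0.10. Its adjusted p was 0.0269, and 0.0722 to 0.0971 without injured replicates 1 or 3 or control replicates 1 or 2. The list's median was -0.22. In 11 of the 24 all injured libraries were below all control libraries, as in 1479 of all 13868 genes tested.

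In other lists single genes passed. The mitotic kinase gene Aurkb rose by 0.41 ± 0.10, as 1 of 42 cell cycle genes (2.38% called, against 2.76% of all genes tested, with a median of 0.22). The proliferation marker Mki67 had 194, 214 and 166 CPM in injured and 129, 118 and 162 CPM in control libraries (0.49 ± 0.14, edgeR adjusted p = 0.0803). The glycolytic regulator gene Pfkfb3 rose by 1.35 ± 0.32, as 1 of 24 (median -0.0053), and Gclc, for glutathione synthesis, by 0.38 ± 0.08, as 1 of 13 NRF2 targets (median 0.18). In TGF-beta signalling Tgfb2 was the only 1 of 20 (median -0.04), and 0 of 17 heat shock genes passed (median 0.04). Aurkb missed the threshold in all but the fit without control replicate 3 (edgeR adjusted p up to 0.173). Pfkfb3 missed it when injured replicate 1 (0.175) or any control library (0.0505 to 0.166) was left out. Gclc missed it when replicate 1 of either group (0.0997 for injured, 0.0722 for control), injured replicate 3 (0.0682) or control replicate 2 (0.138) was.

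Outside the cell type markers, several genes fell deeply. Cabp7, a calcium-binding protein, had 1.70, 2.71 and 3.02 CPM in injured and 14.4, 12.0 and 11.6 CPM in control libraries, and fell by 2.34 ± 0.26 (edgeR adjusted p = 0.000649). Dpp6, an auxiliary subunit of voltage-gated potassium channels, had 13, 24.5 and 20.6 CPM in injured and 65.1, 122 and 62.4 CPM in control libraries, and fell by 2.10 ± 0.30. Ephb1, an Eph receptor tyrosine kinase, had 8.87, 10.4 and 12.2 CPM in injured and 38.0, 34.1 and 26.3 CPM in control libraries, and fell by 1.64 ± 0.18. The aldo-keto reductase gene Akr1c14 fell by 1.24 ± 0.17, and Ankrd55, an ankyrin repeat gene from a human autoimmune risk locus, by 1.07 ± 0.19. Ankrd55 had 41.1, 84.9 and 78.3 CPM in injured and 131, 149 and 150 CPM in control libraries. All 5 genes held, though Ankrd55 missed the threshold with the 6 libraries alone (edgeR adjusted p = 0.0574). Ddc, the decarboxylase that makes dopamine and serotonin, also held and fell by 1.36 ± 0.21 (edgeR adjusted p = 0.00465). It had 6.48, 8.87 and 11.3 CPM in injured and 24.4, 24.4 and 20.1 CPM in control libraries. Klf12, a transcriptional repressor, fell by 1.75 ± 0.32 and missed the threshold without injured replicate 1 (0.0596). The BMP antagonist gene Grem1 (by 1.84 ± 0.41), Aplf (by 1.90 ± 0.44) and Zfp365 (by 1.88 ± 0.45) also fell. Grem1 missed the threshold when replicate 1 of either group, injured replicate 3 or control replicate 2 was left out (up to 0.118), Aplf in all but the fit without control replicate 2 (up to 0.121) and Zfp365 in all but that without injured replicate 3 (up to 0.135). Cabp7 and Dpp6 stand in a list of 23 microglial channel and purinergic receptor genes, to which they were added with their fall known. In that list 1 rose and 2 fell (13% called, against 2.76% of all genes tested), and the median was -0.06. The 2 that fell were Cabp7 and Dpp6. The 1 that rose was the calcium channel gene Trpv2 (0.43 ± 0.08, edgeR adjusted p = 0.0124, and 0.0569 and 0.0610 without injured and control replicate 1). With 1.6% of all genes tested called higher, 1 rise among 23 genes says little about the list.

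The T cell co-receptor genes Cd8a and Cd8b were among the largest rises. Cd8a had 10.4, 20.4 and 27.4 CPM in injured and 2.39, 3.14 and 5.31 CPM in control libraries (2.43 ± 0.43, edgeR adjusted p = 0.0103). Cd8b had 7.10, 11.7 and 11.1 CPM in injured and 2.05, 1.77 and 3.40 CPM in control libraries (2.04 ± 0.36, edgeR adjusted p = 0.0105). Both missed the threshold without control replicate 1 (0.0508 each) or 2 (0.0634 and 0.0703). The genes of the T cell receptor complex had too few counts to be tested. Cd3e had raw counts of 5, 1 and 0 in injured and 3, 2 and 0 in control libraries, Cd3d had 1, 3 and 2 against 0, 6 and 1, and Cd3g had 1, 2 and 1 against 0, 3 and 2. Gzmb and Klrb1 were at 0 in all 6. Of the 27 T and NK cell markers 10 could be tested, and 2 rose and 1 fell (30% called, against 2.76% of all genes tested). The gene that fell was Cd5 (by 0.66 ± 0.16), which missed the threshold whichever library was left out (0.0714 to 0.141). The list's median was 0.14, and -0.24 without injured replicate 1, and its summed level was 119 to 159 CPM in injured and 136 to 171 CPM in control libraries. In rats CD8 is also known from macrophages. Cd4, which rat macrophages carry too, had 550, 521 and 524 CPM in injured and 319, 355 and 403 CPM in control libraries (0.57 ± 0.10, edgeR adjusted p = 0.00792, and 0.0506 without control replicate 2).

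Markers of border-associated macrophages and of other blood cells did not pass, though 0 called says little in such short lists when 2.76% of all genes tested were called. Of border-associated macrophage markers 0 of 11 were called (median 0.30), of monocyte markers 0 of 5 (0.29), of neutrophil markers 0 of 13 (0.38), of B cell markers 0 of 3 (0.37), of dendritic cell markers 0 of 6 (-0.21), of mast cell markers 0 of 10 (0.30) and of erythroid markers 0 of 5 (-1.35). The B cell median was -0.12 without injured replicate 1.

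Of the 37 lists, whose members were chosen with earlier results of these data known, that of myelin genes had the largest share called. Of 20 markers of myelinating oligodendrocytes tested, 12 fell and 0 rose (60.0% called, against 1.16% of all genes tested called lower). All 20 had a log2 fold change below 0, with a median of -1.33, and 18 had separate groups. Of all 13868 genes tested, 1479 had separate groups with the injured libraries lower. Summed over the list, the level was 605 to 738 CPM in injured and 1188 to 1297 CPM in control libraries. In bulk RNA, fewer oligodendrocyte fragments or cells in the preparation and less myelin mRNA per cell cannot be told apart.

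Mog, a late myelin surface protein, had 2.16, 2.49 and 2.20 CPM in injured and 8.87, 8.37 and 9.80 CPM in control libraries, and fell by 1.98 ± 0.26 (edgeR adjusted p = 0.00158). Mobp, a compact myelin protein, had 7.41, 7.69 and 9.30 CPM in injured and 31.6, 25.4 and 28.0 CPM in control libraries, and fell by 1.79 ± 0.23. The axonal contact gene Mag fell by 1.48 ± 0.21, the galactolipid enzyme gene Ugt8 by 1.52 ± 0.25, the tight junction gene Cldn11 by 1.17 ± 0.16 and Tspan2 by 0.95 ± 0.16. These 6 genes held.

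Mbp, the myelin basic protein, had 59.9, 93.1 and 99.0 CPM in injured and 221, 202 and 211 CPM in control libraries, and fell by 1.33 ± 0.26 (edgeR adjusted p = 0.0147). It missed the threshold without injured replicate 1 (0.0763), control replicate 1 (0.0534) or control replicate 2 (0.0506). Ermn (by 2.12 ± 0.50), Klk6 (by 1.99 ± 0.41), Fa2h (by 1.32 ± 0.31) and Apod (by 1.02 ± 0.18) fell too. Ermn missed the threshold whichever library was left out (0.0506 to 0.102), Klk6 in all but the fit without control replicate 3 (up to 0.0691), Fa2h without injured replicates 1 or 3 or control replicates 1 or 2 (0.0926 to 0.135) and Apod without injured replicate 1 (0.0514). Not every gene of the lineage moved. The transcription factor gene Myrf had 140, 155 and 141 CPM in injured and 143, 160 and 155 CPM in control libraries (-0.07 ± 0.10, edgeR adjusted p = 0.721).

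Earlier stages of the lineage gave smaller values. Of 9 markers of newly formed oligodendrocytes 1 fell (11.1% called, against 1.16% of all genes tested called lower), with a median of -0.10. This was Rras2, by 0.66 ± 0.15, and it missed the threshold when replicate 1 or 2 of either group was left out (edgeR adjusted p of 0.0941 to 0.121). Of 10 precursor markers 0 passed (median -0.36). Pdgfra, the receptor that marks precursors, had 17.5, 16.3 and 23.1 CPM in injured and 34.5, 24.9 and 23.2 CPM in control libraries (-0.53 ± 0.23, edgeR adjusted p = 0.216). Of 20 neuron markers 0 passed (median 0.10).

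**Figure D3:**
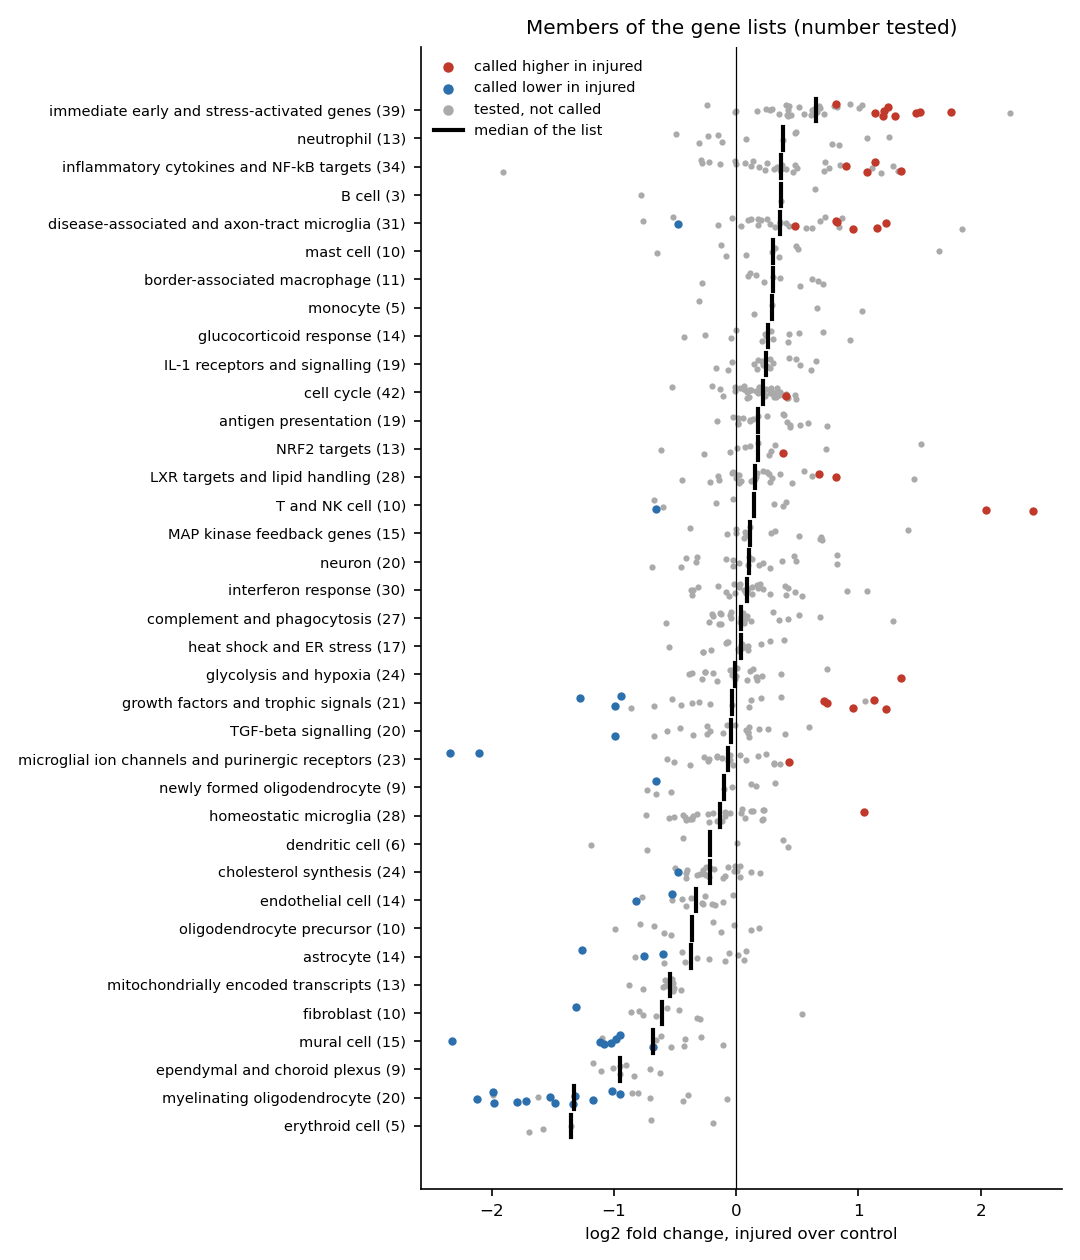
Log2 fold change of injured over control libraries for each tested member of 37 gene lists, 1 row per list in order of the median (black bar), with called genes in red (higher) and blue (lower). The immediate early genes have the highest median, 0.66, with 9 called higher, and the myelinating oligodendrocyte markers have 12 called lower at a median of -1.33.

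Vascular markers lay lower as well. Of 15 mural cell markers 7 fell and 0 rose (46.7% called, against 1.16% of all genes tested called lower, with a median of -0.68 and all 15 below 0). Their summed level was 507 to 765 CPM in injured and 832 to 1218 CPM in control libraries. Tagln, a smooth muscle actin-binding protein, had 49.4, 50.6 and 66.5 CPM in injured and 122, 126 and 90.9 CPM in control libraries. It fell by 1.02 ± 0.15 (edgeR adjusted p = 0.00264) and held. The contractile genes Acta2, Myh11, Myl9 and Cnn1 fell by 1.08 ± 0.20, 1.11 ± 0.24, 0.95 ± 0.18 and 2.32 ± 0.46. Vtn fell by 0.99 ± 0.18 and the pericyte gene Rgs5 by 0.68 ± 0.15. Outside the list, the smooth muscle actin gene Actg2 fell by 2.03 ± 0.34 and held. When injured replicate 1 was left out, the adjusted p of the 6 that did not hold was 0.0589 to 0.106, and when control replicate 2 was, 0.0660 to 0.0940. Myh11, Myl9, Cnn1 and Rgs5 also missed the threshold without injured replicate 2 (0.0563 to 0.0983), and Acta2, Myh11, Myl9 and Rgs5 without control replicate 1 (0.0508 to 0.116).

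Of 14 endothelial markers 2 fell (14.3% called, against 1.16% of all genes tested called lower), with a median of -0.33. They were the transporter gene Slco1a4, by 0.82 ± 0.16, and Itm2a, by 0.53 ± 0.12. Of 14 astrocyte markers 3 fell (21.4% called, median -0.37): S100b by 0.75 ± 0.19, Ntsr2 by 1.26 ± 0.29 and the angiotensinogen gene Agt by 0.59 ± 0.15. Of 10 fibroblast markers 1 fell, Mgp, by 1.31 ± 0.26 (median -0.61), and of 9 ependymal and choroid plexus markers 0 passed (median -0.95, all 9 below 0). None of these 6 called genes held. Slco1a4, Ntsr2 and Mgp missed the threshold when replicate 1 or 2 of either group was left out (edgeR adjusted p up to 0.0803, 0.134 and 0.0871). Itm2a and Agt missed it in all but the fit without control replicate 3 (up to 0.139 and 0.160), and S100b in all but that without injured replicate 1 (up to 0.170). The part of carried-over cells in the myelin and vascular results was not tested.

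The change of myelin and immediate early genes was set beside that in the 5 other runs, each with its own injured and control libraries and its own fit. For myelinating oligodendrocyte markers the median log2 fold change was 0.18 at P7, intranasal, -0.25 at P7, intravenous, 0.19 at P12, intravenous, 0.11 at P22, intranasal, and 0.02 at P22, intravenous, and 0 genes were called in any of them. The members tested differed, with 12, 18, 19, 21 and 21 in the same order. Mog, Mobp, Ermn, Klk6 and Fa2h were not among the 12 tested at P7, intranasal, and over those 12 the median here was -0.98. For immediate early genes the medians in the same order were 0.40, 0.29, 0.08, 0.19 and 0.19, with 10, 1, 0, 0 and 0 genes called higher. Mural markers had medians of 0.12, -0.01, 0.26, 0.14 and 0.96. Of the 383 genes called here, 59 were also called in the same direction at P7 in the intranasal run (of 373 tested), 3 at P7 (of 380) and 1 at P12 (of 381) in the intravenous runs, and 0 at P22. The sign was shared by 72.1% at P7, intranasal, 76.8% at P7, intravenous, 50.7% at P12, intravenous, 37.7% at P22, intranasal, and 41.1% at P22, intravenous. The same share over all genes tested is not given here, so these percentages cannot be set against it. The counts of shared calls also depend on how many of all genes each run called, which is not given here. No list member was called in the P22 runs. Ephb1 was lower in injured libraries in 5 of the 6 runs. It had a log2 fold change of -1.11 ± 0.22 at P7, intranasal (edgeR adjusted p = 0.00873), -0.81 ± 0.50 at P7, intravenous, -0.91 ± 0.26 at P12, intravenous, -1.16 ± 0.22 at P22, intranasal, and 0.09 ± 0.32 at P22, intravenous.

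**Figure D4:**
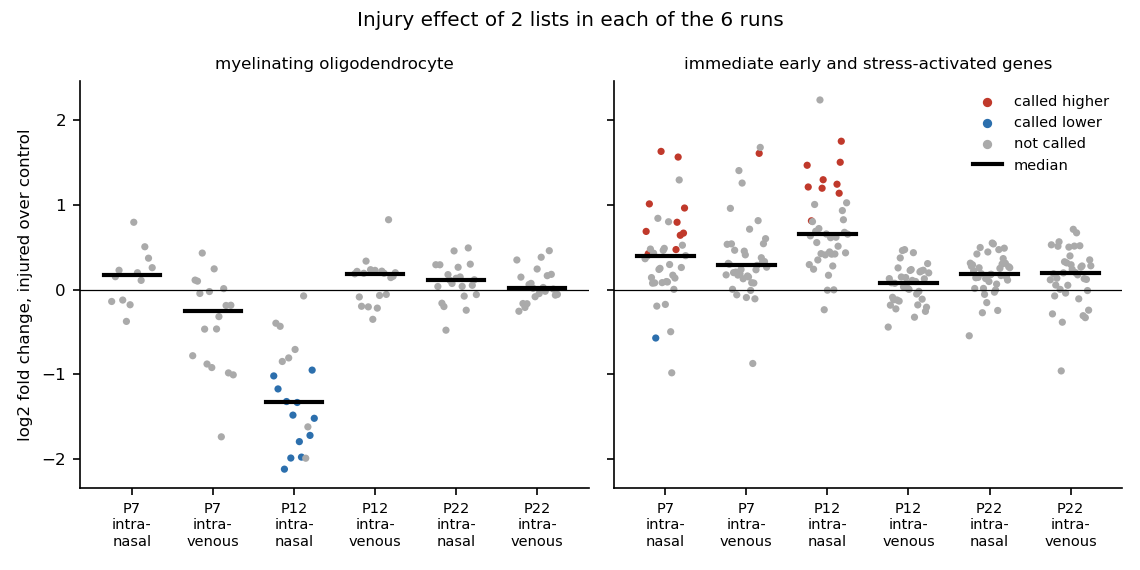
Log2 fold change of injured over control libraries in each of the 6 runs, ordered by age, for myelinating oligodendrocyte markers (left) and immediate early genes (right), 1 point per gene, with the median as a black bar. The myelin median is -1.33 at P12 in the intranasal run and between -0.25 and 0.19 in the other runs.

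The P12 intravenous run repeated the same injury, age and kit with other libraries and another sequencing run. The difference of the 2 injury effects was tested in 1 fit of the 36 injured and control libraries of all runs. Of 14605 genes 28 were called (0.192%), 19 with a higher log2 fold change in the intranasal run (0.13%) and 9 with a lower one (0.0616%), and 1778 had an unadjusted p under 0.05. Snn differed by 0.89 ± 0.13 (edgeR adjusted p = 0.00212), with an injury effect of 0.66 ± 0.09 in the intranasal and -0.23 ± 0.10 in the intravenous run. It was called in each of the 12 fits that left out 1 library. Plau differed by 1.80 ± 0.30 (adjusted p = 0.0120, and 0.0506 without intravenous injured replicate 1). Ivns1abp, an influenza protein binding partner, differed by -1.30 ± 0.23 (adjusted p = 0.0154), with injury effects of -0.68 ± 0.14 and 0.61 ± 0.15. It missed the threshold when intravenous injured replicate 1 (0.0506) or 3 (0.0617) or control replicate 2 (0.0507) was left out. Its call in the intranasal run was lost without injured replicate 3 (0.0520) or control replicate 1 (0.0722).

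Among myelin genes, Mobp differed between the runs by -2.02 ± 0.42 and Mbp by -1.27 ± 0.25 (edgeR adjusted p = 0.0363 each). In the intravenous run their own injury effects were 0.22 ± 0.23 and -0.07 ± 0.15. Mog (-2.18 ± 0.57) did not pass (adjusted p = 0.105). Arc differed by 1.90 ± 0.37, Plin2 by 0.78 ± 0.16, Cd8a by 2.18 ± 0.48, Atp1b1 by 0.87 ± 0.17 and Myo1e by 0.84 ± 0.18. The difference for Csf1 was 0.65 ± 0.23 (adjusted p = 0.250), with an injury effect of 0.57 ± 0.17 in the intravenous run. When 1 of the 12 libraries was left out, Mobp and Cd8a missed the threshold in 10 of 12 fits, Arc and Plin2 in 9, Mbp in 8, Atp1b1 in 6 and Myo1e in all 12, with adjusted p up to 0.152. The number of genes called fell to 1 without intravenous injured replicate 1 and was 23 at most. Route and sequencing run cannot be told apart here.

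**Figure D5:**
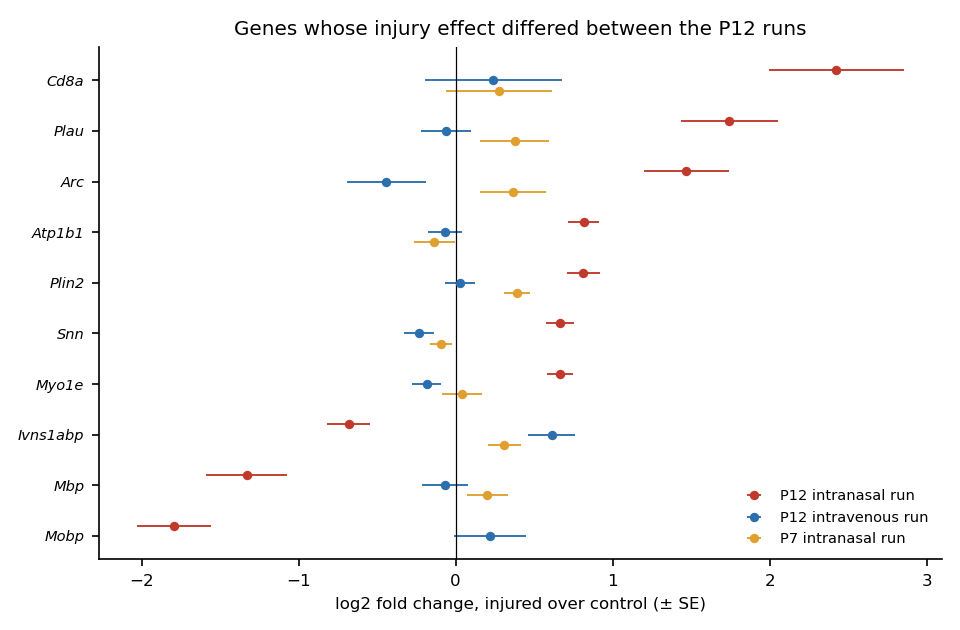
Injury effect (log2 fold change of injured over control ± SE, horizontal) of the genes named in the text among the 28 whose effect differed between the P12 runs, for the P12 intranasal (red), P12 intravenous (blue) and P7 intranasal (yellow) runs. Cd8a, Plau and Arc lie far right in the P12 intranasal run and near 0 in the intravenous one, and Mobp and Mbp far left, and Mobp, not tested in the P7 run's own fit, has no yellow point.

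The same route at P7 was the comparison across age, with P7 brains dissociated by another kit. The injury effect differed for 333 genes (2.28%), 247 higher at P12 (1.69%) and 86 lower (0.589%). Ankrd55 differed by 2.35 ± 0.33 (edgeR adjusted p = 0.000123), and its injury effect was -1.07 ± 0.19 at P12 and -3.42 ± 0.34 at P7. The mitotic genes Aurkb (1.15 ± 0.15) and Mki67 (1.38 ± 0.25) had effects of opposite sign at the 2 ages, with -0.73 ± 0.15 and -0.88 ± 0.16 at P7. Csf1 differed by 1.26 ± 0.23, Cd8a by 2.16 ± 0.47, Cd8b by 2.00 ± 0.44, Tspan10 by 2.07 ± 0.42, Plau by 1.38 ± 0.30, Tnfaip2 by 1.56 ± 0.32, Atp1b1 by 0.96 ± 0.17 and Snn by 0.77 ± 0.13. In the other direction Mbp differed by -1.52 ± 0.26, Slco1a4 by -1.64 ± 0.35 and Ddc by -1.95 ± 0.43. These 14 genes were called in each of the 12 fits that left out 1 library. Fosl2, with a difference of -0.33 ± 0.33, did not pass (edgeR adjusted p = 0.688), and it was called higher at P7 too, at 1.63 ± 0.22. Of the myelin genes, Mog was too low at P7 to be tested in that run's own fit. Its difference between the ages did not pass (edgeR adjusted p = 0.888), and at such low counts this cannot show whether Mog fell at P7.

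The pups of the same run that received HuMSC after IL-1β gave values between or beside those of the 2 groups, described here without a test. Csf1 averaged 61.1 CPM in the HuMSC20 group, 28.1 in HuMSC50 and 28.8 in HuMSC125 (named by dose in M cells per kg). Fosl2 averaged 14.0, 5.70 and 5.39 CPM and Mobp 9.35, 26.0 and 20.0 CPM in the same order. The summed myelin markers were 693 to 816 CPM in HuMSC20, 911 to 1268 CPM in HuMSC50 and 952 to 1238 CPM in HuMSC125 libraries. For Fosl2 and Mobp the HuMSC20 average lay nearer the injured and the other averages nearer the control libraries. For Csf1 the HuMSC20 average lay between the injured and the control libraries, and the other averages lay below both. Ankrd55 averaged 74.2, 74.7 and 85.4 CPM in the same order, against 41.1 to 84.9 CPM in injured and 131 to 150 CPM in control libraries.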

How the data were processed

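The authors deposited a table of raw counts per gene, whole numbers for 32623 genes in 90 columns, without normalization. The submitters' processing notes name DESeq2 1.8.1, HTSeq 0.5.3, SAMtools and STAR 2.7.2d, in no order. Genome build, annotation and strand setting are not given in the sources used here. Genes with near-identical or overlapping partners are therefore uncertain. Columns were matched to samples by the library name in each sample's description, beside its title.

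The 15 libraries of the run were fitted in edgeR 4.0.16 (R 4.3.3) with a mean per group, filterByExpr (minimum count 10, minimum total 15), TMM scaling and quasi-likelihood F tests, with p-values adjusted after Benjamini and Hochberg and a threshold of 0.05. This left 10 residual degrees of freedom. CPM use the TMM-scaled library sizes. Each SE was obtained by dividing the log2 fold change by √F. Differences of injury effects came from the 36 injured and control libraries, with 12 group means. The fit of injured against control libraries in this run was tested on simulated counts, which did not cover the differences of injury effects.

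The 37 gene lists (731 genes, 706 matched) and the named genes were chosen with earlier results of these data known. Genes named were, in each direction, the 15 called genes that changed most and had a settled symbol, separate groups and an average log2 CPM no lower than 1, up to 4 members with the smallest p per list, a fixed set of microglial genes and genes called in a difference, each printed in part. Further list members, among them Fos, Jun, Egr1, Il1r1, Myrf and Pdgfra, and Tlr5, Gpr183, Erbb3, Cd4 and Akr1c14 were named after their values were seen. Il1b, Spp1 and Lgals3 belong to the fixed set. Some genes of the rule and the lists are counted but not reported by name here. Nos2 was not analysed here, and Arg1 did not pass the filter on low counts. Alternatives were DESeq2 1.42.0, RLE scaling, no filter, fewer libraries, a replicate block and leaving out each library.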

Additional observations from a re-analysis of the deposited data

Results flagged for a closer look

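The difference between the injury effects of 2 runs was tested directly and passed for 28 genes against the P12 intravenous run and for 333 genes against the P7 intranasal run. Among the genes named above, the log2 difference from the P12 intravenous run (edgeR, 3 libraries per group) was 0.89 for Snn, 1.80 for Plau, 0.87 for Atp1b1, 1.90 for Arc, 0.78 for Plin2, 0.84 for Myo1e and 2.18 for Cd8a. It was -1.30 for Ivns1abp, -1.27 for Mbp and -2.02 for Mobp. With 12 libraries left out in turn, Myo1e missed the threshold in 12 fits, Mobp and Cd8a in 10 and Arc and Plin2 in 9. Mbp did so in 8 fits, Atp1b1 in 6, Ivns1abp in 3, Plau in 1 and Snn in 0.

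From the P7 intranasal run the log2 difference was 1.15 for Aurkb, 2.35 for Ankrd55, 0.77 for Snn, 0.96 for Atp1b1, 1.38 for Mki67, 1.26 for Csf1, 2.07 for Tspan10, 1.56 for Tnfaip2, 2.16 for Cd8a, 1.38 for Plau, 2.00 for Cd8b and 1.14 for Gpnmb. It was -1.52 for Mbp, -1.64 for Slco1a4, -0.98 for Ivns1abp, -1.65 for Cabp7, -1.84 for Fgf1, -1.95 for Ddc and -0.93 for Rras2. With 12 libraries left out in turn, Gpnmb missed the threshold in 7 fits, Fgf1 and Cabp7 in 6, Rras2 in 10 and Ivns1abp in 2. With 3 libraries per group, no single library was tested as standing apart.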

How the results depend on the processing

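The 383 calls became 865 with DESeq2, 366 with RLE scaling, 421 without a filter, 419 without the HuMSC125 library rich in neuron markers (chosen after seeing the data) and 89 with the 6 libraries alone. With those 6 alone Vegfb, Gdf15, Il34, Tgfb2, Fgf1, Fosb, Arc, Nr4a1, Il1rn, Tnfaip2, Tlr1, Gpnmb, Cd63, Ctsl, Soat1, Msmo1, Cd5, Cd4, Sdc4, Ankrd55, Ermn, Klk6, Fa2h, Acta2, Myh11, Cnn1, Rgs5, Myl9, Mgp, Itm2a, S100b, Ntsr2, Agt, Aurkb, Ivns1abp, Pfkfb3, Trpv2, Gclc, Rras2, Rasgef1b, Grk3, Aplf and Zfp365 missed the threshold (adjusted p of 0.0509 to 0.109). With 1 library left out the count was 68 to 452. The 28 calls of the route difference became 15 without a filter, 126 with DESeq2, 18 with 12 libraries and 1 to 23 with 1 library left out. The 333 calls of the age difference became 218, 526, 136 and 156 to 334 in the same order.

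Samples with the same replicate number did not deviate together (r of -0.051, -0.157 and -0.180). With 3 libraries per group this cannot show whether the numbers pair them. With the replicate block the counts were 351, 6 and 180. Osm, Fgf1, Fosb, Nr4a1, Nr4a2, Maff, Cxcl2, S100b, Agt, Aurkb and Rasgef1b, named above, then missed the threshold.

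With 1 library left out, the list medians ran from -0.236 (without injured replicate 1) to 0.435 for T and NK cells, -0.117 (likewise) to 0.726 for B cells, -0.0559 (likewise) to 0.0498 for heat shock, which also changed sign without control replicate 3 (-0.0448), and -0.0971 (without injured replicate 2) to 0.117 for complement. Cx3cr1 ran from -0.0142 (without injured replicate 2) to 0.347. Il1b passed without a filter (adjusted p = 0.0181), with DESeq2 (0.0489) and without the neuron-rich library (0.0230). Klk6 got no adjusted p from DESeq2. Counts in single digits, as for Cd3e, allow no statement on differences.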
